A study of Homo sapiens with 15 samples.

Results

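The 78 genes described here are those whose symbol is KRT followed by a number or begins with KRTAP, pseudogenes left out, among 19775 genes read from an Affymetrix array with 1 gene symbol per probe set. They comprise 23 type I keratins, 20 type II keratins, 33 keratin-associated proteins, KRT222, and KRTAP5-AS1, an antisense RNA that the symbol rule takes in. Where a gene had several probe sets, that of the highest mean stood for it. By the labels the cells were Caco-2, a line of epithelial cells grown from a human colon tumour, used here before differentiation. All 15 cultures were kept for 24 h in medium without serum and each was read on 1 array: medium alone, 100 mM NaCl, 5 mM butyrate, and 12 with cell-free fluid from a colon simulator at 10% by volume. The simulator had run for 48 h with 0%, 1% or 2% polydextrose, a glucose polymer that is poorly digested and reaches the colon. Its 4 connected vessels follow the course of the colon: vessel 1 is modelled on the ascending part, vessel 2 on the transverse, vessel 3 on the descending and vessel 4 on the sigmoid and rectal part. Each vessel gave 1 array per concentration, which makes 4 arrays at 0%, 4 at 1% and 4 at 2%. No culture was repeated, and the 4 fluids of a concentration came through 1 connected series of vessels. P-values therefore measure only the spread between these arrays, with the vessel as a block.

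Keratins are the intermediate filament proteins of epithelial cells. A type I (acidic) keratin pairs with a type II (basic) keratin, and the pairs assemble into filaments that are anchored at desmosomes and give the cell mechanical strength. Simple epithelia such as the intestinal lining use KRT8 with KRT18, KRT19 and KRT20, while stratified epithelia and hair use other pairs. Keratin-associated proteins are small proteins rich in cysteine, or in glycine and tyrosine, that cross-link the hair keratins in the matrix of the hair shaft. Their genes lie in dense rows beside the keratin genes.

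All values are the deposited log2 values, and a gene under log2 5 is called silent, as a convention for this array and not as proof that its RNA is absent. Of 10 enterocyte markers, 7 were under log2 5 on all arrays, against 51.9% of all genes. Among them were the brush border protein VIL1 (1.66 to 2.78 over its 4 probe sets), the enzymes ALPI and SI, and the transcription factor CDX2 (highest value 4.95), which defines intestinal epithelium. The epithelial adhesion genes EPCAM (13.12 to 13.60) and CDH1, and the intestinal cadherin CDH17 (7.48 to 9.60), had signal throughout, so the arrays show an epithelial cell with few of the markers of an enterocyte. Whether this goes with the identity of the line or with its state was not tested. Of 4 leukocyte markers none reached log2 5. Of 6 markers of stratified squamous epithelium only SERPINB5 did, with 7.21 in medium, 9.31 in butyrate and 9.41 to 10.08 in the fluids, while the other 5 (DSG3, DSC3, IVL, KRT5 and KRT14) stayed at 2.52 or less. Of 7 fibroblast markers only COL1A1 reached it, with 1.37 in medium, 8.13 in butyrate and 5.26 to 8.26 in the fluids. The summed level of the squamous list was 7.04 to 9.36 on the control arrays and 9.45 to 10.10 on the fluid arrays, and that of the fibroblast list 4.97 to 8.27 and 6.08 to 8.39. The part of these cell types in the keratin results was not tested. ACTB, whose 3′ and 5′ probe sets are compared as a measure of RNA quality, differed between them by 0.366 to 0.951 on the log2 scale. Between 42.27% and 44.10% of genes were at log2 5 or more. The medium array, the reference for silent and switched-on genes, had both the largest ACTB difference (0.951) and the lowest share of genes (42.27%). NaCl had 0.641 and 43.19%, and butyrate 0.585 and 43.18%. The part of RNA quality in the differences from medium was not tested.

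In medium 70 of the 78 genes (89.7%) were silent, against 57.7% of all genes. On all 15 arrays 67 stayed under log2 5, against 51.9% of all genes. These 67 took values between 0.95 and 4.47, with a median range over the arrays of 0.47, and 60 of them stayed under 3 everywhere. The 12 hair keratins were silent on all arrays, and so were 31 of the 33 keratin-associated proteins. Among the 32 epithelial keratins 23 were silent throughout, including KRT5 and KRT14, the pair of the basal layer of the epidermis, which reached only 1.96 and 2.43. The highest values among the silent genes belonged to KRT78, a type II keratin (3.11 in medium, 4.47 at most), and KRT16, a keratin of wounded epidermis (3.32 in medium, 4.38 at most).

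Signal in medium was found for 8 genes: KRT7, KRT8, KRT10, KRT18, KRT19, KRT20, KRT80 and KRTAP3-1. A silent gene was counted as switched on where it reached log2 6, on at least 3 of the 12 arrays in the case of the fluids. Butyrate switched on 1 of the 70 silent genes, KRT15, against 2.63% of all silent genes. NaCl switched on none of the 70, against 1.13%. The fluids switched on 1 of the 70, again KRT15, against 2.22%. In each case the share was no higher than among all genes. KRT23 and KRTAP4-1 were silent in medium and passed log2 5 on a fluid array without reaching 6. The gene with the greatest distance between medium and butyrate, KRTAP3-1, was not among the silent genes, because its value in medium was 5.55. With a limit of 6 for silent and 7 for on, the call passed from KRT15 to KRTAP3-1 for both butyrate and the fluids.

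**Figure D1:**
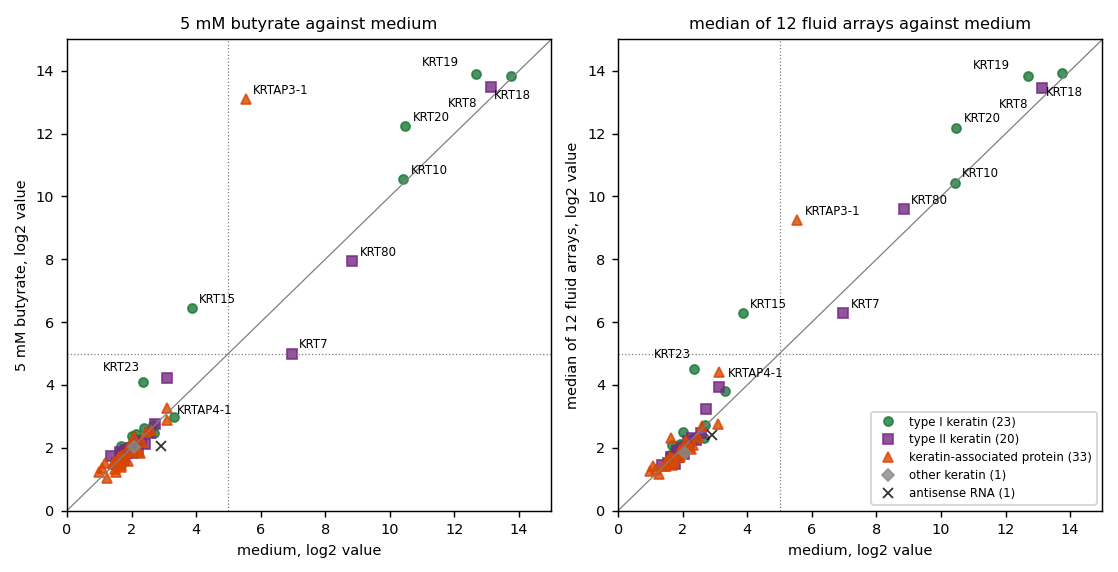
Log2 values of the 78 genes in medium (x axis) against 5 mM butyrate (left) and against the median of the 12 fluid arrays (right), 1 symbol per gene, with the diagonal of equal values and dotted lines at log2 5. Most genes lie in the lower left corner in both plots, KRT15 crosses from below 5 to above it, and KRTAP3-1 goes from 5.55 in medium to 13.09 in butyrate.

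Single arrays were compared without a test, and a gene was counted where the difference reached 1 on the log2 scale with the brighter side at log2 6 or more. By this rule butyrate was above medium for 4 of the 9 genes compared (KRT15, KRT19, KRT20 and KRTAP3-1), against 15.6% of all genes compared. It was below medium for 1, KRT7, also against 15.6%. The median difference between butyrate and medium was 0.353 over the 9 genes and 0.004 over 8057 genes. KRT15 and KRTAP3-1 entered these values only through butyrate, where they were high. Over the 7 genes at log2 6 or more in medium itself, a choice made after seeing the data, 2 were above medium in butyrate (KRT19 and KRT20) against 10.2% of 7403 genes. In that set 1 was below medium (KRT7) against 16.9%, and the median difference was 0.124 beside -0.084. NaCl was above medium for 1 of 8 genes, KRTAP3-1, against 8.93%, and below it for 1, KRT7, against 7.67%. KRTAP3-1 (5.55 in medium, 6.87 in NaCl) entered this comparison only through NaCl, where it was high. All 12 fluid arrays were above both medium and NaCl for 6 of 9 genes (KRT8, KRT15, KRT18, KRT19, KRT20 and KRT80), against 19.2% of all genes compared. KRT15 entered here only through its high values, and among the 7 genes at log2 6 or more in medium 5 met the rule, against 16.4% of all such genes. None of the 9 had all 12 fluid arrays below both, against 17.1%, and KRT15 with its entry through high values is in this count too. KRT10 was not among the genes with all 12 above both on the probe set that stood for it, but was on its other probe sets. The 12 fluids were set against the same 2 control arrays for every gene. In RNA from a whole culture, fewer cells with a transcript and less of it in each cell cannot be told apart.

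KRT8, the type II keratin of simple epithelia, had a value of 13.14 in medium, 13.15 in NaCl and 13.49 in butyrate. In vessels 1 to 4 it had 13.53, 13.54, 13.57 and 13.23 at 0%, 13.68, 13.47, 13.43 and 13.44 at 1%, and 13.60, 13.39, 13.36 and 13.32 at 2%. All fluid arrays lay above medium and NaCl, by 0.32 on average, and the concentrations overlapped. KRT18, its type I partner, had 13.74 in medium, 13.79 in NaCl and 13.84 in butyrate. The fluids gave 13.94, 13.93, 13.93 and 13.92 at 0%, 14.01, 13.97, 14.04 and 13.99 at 1%, and 13.98, 13.90, 13.89 and 13.92 at 2%. This was the narrowest pattern of the pair, with the fluids 0.21 above medium on average. The highest value of any probe set on these arrays was 14.46, so both genes were read near the upper end of the scale, and the probe sets of both genes belong to a kind that may also bind related sequences.

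KRT19, a small type I keratin of simple and ductal epithelia, had 12.68 in medium, 12.69 in NaCl and 13.91 in butyrate. The fluids gave 13.68, 13.86, 13.82 and 13.74 at 0%, 13.76, 13.87, 13.86 and 13.85 at 1%, and 13.82, 13.82, 13.84 and 13.80 at 2%. The 12 fluid arrays thus formed a band 1.00 to 1.19 above medium and just below butyrate, with no overlap with medium or NaCl. A second probe set of KRT19 stayed between 1.98 and 2.82 and showed none of this.

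KRT20, a type I keratin that marks the differentiated cells of the intestinal lining, had 10.48 in medium, 10.37 in NaCl and 12.23 in butyrate. The fluids gave 11.74, 12.18, 12.11 and 11.92 at 0%, 11.75, 12.39, 12.25 and 12.16 at 1%, and 12.20, 12.25, 12.23 and 12.26 at 2%. Butyrate was 1.75 above medium and the fluids 1.26 to 1.91 above it, again without overlap. The mean was 11.99 ± 0.20 at 0%, 12.14 ± 0.27 at 1% and 12.24 ± 0.03 at 2% (SD, n = 4). The 4 arrays at 2% lay within 0.06 of each other, and the difference of 0.25 ± 0.09 (SE) between 2% and 0% did not pass (limma, Benjamini-Hochberg adjusted p = 0.0915).

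KRT15, a type I keratin of basal cells and of hair follicle stem cells, was the only silent gene that was switched on. It had 3.86 in medium, 3.65 in NaCl and 6.45 in butyrate. In vessels 1 to 4 it had 5.33, 5.97, 5.96 and 6.06 at 0%, 5.57, 6.49, 6.80 and 6.76 at 1%, and 5.81, 6.66, 7.20 and 6.67 at 2%. All fluid arrays lay above medium and NaCl, and 7 of the 12 reached log2 6. Since medium was under log2 5, the difference of 2.58 between butyrate and medium is given as at least 1.45. KRT15 lies between KRT19, which had signal on all arrays, and KRT13, another type I keratin. KRT13 and KRT5, the type II partner of KRT15 in basal cells, stayed silent, with highest values of 2.62 and 1.96.

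KRT23, a type I keratin whose gene lies next to KRT20, had 2.34 in medium, 1.88 in NaCl and 4.10 in butyrate. The fluids gave 3.33, 5.14, 4.98 and 4.09 at 0%, 3.52, 4.59, 4.79 and 4.67 at 1%, and 4.96, 4.45, 4.30 and 4.31 at 2%. All 12 lay above medium and NaCl, but only 1 passed log2 5, so the gene entered no test and no fold is given. The arrays of vessel 1 were the lowest at 0% and 1% and the highest at 2%.

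KRT7, a type II keratin of ductal and glandular epithelia, had 6.97 in medium, 5.65 in NaCl and 4.99 in butyrate. The fluids gave 6.26, 6.49, 6.64 and 6.44 at 0%, 7.09, 6.19, 6.32 and 5.56 at 1%, and 6.51, 5.82, 5.40 and 5.76 at 2%. All but 1 of the 12 fluid arrays were below medium, and 2 were also below NaCl, so the fluids and the controls overlapped. Butyrate was at least 1.97 below medium, and NaCl was 1.32 below it. The other 3 probe sets of KRT7 stayed at 2.09 or less, and with the mean of all 4 the difference between butyrate and medium was -0.51.

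KRT80, a type II keratin of epithelial cell edges, had 8.84 in medium, 7.94 in NaCl and 7.94 in butyrate. The fluids gave 9.38, 9.64, 9.56 and 9.93 at 0%, 10.08, 9.57, 9.69 and 9.88 at 1%, and 9.34, 9.38, 9.48 and 9.61 at 2%. All 12 fluids were above medium, by 0.50 to 1.24, while butyrate was 0.90 below it. Butyrate and all 12 fluids lay above medium for KRT8, KRT15, KRT18, KRT19, KRT20 and KRTAP3-1, for KRT18 by only 0.09 in butyrate. For KRT7 butyrate and all but 1 of the fluids lay below medium. For KRT80 butyrate and the fluids lay on opposite sides of the single medium array, while butyrate was level with NaCl. KRT10, a type I keratin of the upper epidermis, had 10.42 in medium, 9.92 in NaCl and 10.55 in butyrate. On the probe set used here its fluids ran from 10.11 to 10.68, on both sides of the medium array, with a mean difference from medium of 0.00. On the other probe sets of KRT10 all 12 fluids lay above medium and NaCl, in part narrowly. The dimmer gave 9.72 in medium, 9.4 in NaCl and 9.73 to 10.13 in the fluids. The brighter gave 9.92 in medium, 9.64 in NaCl and 9.95 to 10.24 in the fluids.

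**Figure D2:**
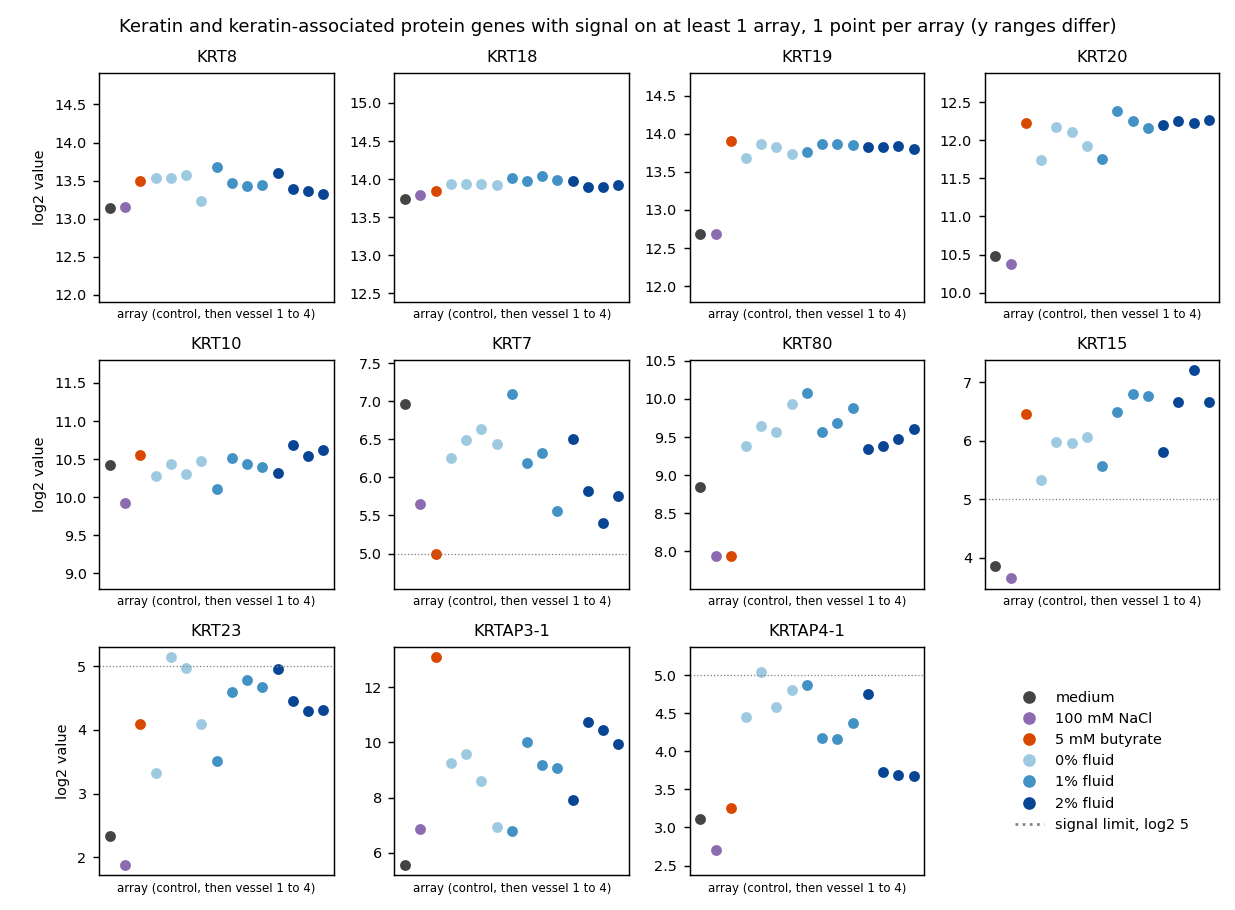
Log2 values of the 11 genes that reached log2 5 on at least 1 array, 1 point per array, in the order medium, NaCl, butyrate and then vessels 1 to 4 at 0%, 1% and 2% polydextrose; the y ranges differ between plots and the dotted line is log2 5. KRT19 and KRT20 form a band near butyrate and above both other controls, while KRTAP3-1 scatters between 6.78 and 10.73 under its butyrate value of 13.09.

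KRTAP3-1, which encodes a high-sulfur protein of the hair shaft, had the widest range of the 78 genes. It had 5.55 in medium, 6.87 in NaCl and 13.09 in butyrate. In vessels 1 to 4 it had 9.27, 9.57, 8.59 and 6.94 at 0%, 6.78, 10.02, 9.20 and 9.07 at 1%, and 7.93, 10.73, 10.46 and 9.93 at 2%. All 12 fluid arrays were above medium, by 1.23 to 5.19, 11 were above NaCl as well, and none reached butyrate. Butyrate was 7.54 above medium, a 186-fold difference between 2 single arrays, which ranked 5 among the 8057 genes compared. NaCl was 1.32 above medium. The gene has 1 probe set, and related genes of such families are alike in sequence. Whether another transcript binds this probe set was not tested.

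The closest relatives of KRTAP3-1, KRTAP3-2 and KRTAP3-3, are its neighbours on chromosome 17. KRTAP3-2 had 2.09 in medium, 2.20 in NaCl and 2.35 in butyrate, and 2.35 was its highest value anywhere. KRTAP3-3 had 1.09 in medium, 1.49 in NaCl and 1.34 in butyrate. On the other side of KRTAP3-1, KRTAP1-5 had 1.91 in medium, 1.92 in NaCl and 2.06 in butyrate. The strip of high values was thus 1 gene wide here. The upstream sequences of the 3 relatives are shown because these genes lie side by side but only KRTAP3-1 had signal, with that of KRT20, a keratin of the same row that had signal on all arrays. They are the 250 bases before each RefSeq start site on GRCh38.p14, all on the minus strand and printed 5′ to 3′: chr17:41009129-41009378 for KRTAP3-1, chr17:40999907-41000156 for KRTAP3-2, chr17:40994165-40994414 for KRTAP3-3 and chr17:40885243-40885492 for KRT20. Capitals mark TANATAAG, a TATA-box form, and TTTATG, a core of CDX binding sites that reads CATAAA on the other strand.
KRTAP3-1: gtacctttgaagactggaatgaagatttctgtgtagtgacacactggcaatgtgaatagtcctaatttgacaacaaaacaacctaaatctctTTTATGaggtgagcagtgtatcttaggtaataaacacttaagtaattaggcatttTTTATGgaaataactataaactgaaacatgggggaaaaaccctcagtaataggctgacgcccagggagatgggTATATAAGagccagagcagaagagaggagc
KRTAP3-2: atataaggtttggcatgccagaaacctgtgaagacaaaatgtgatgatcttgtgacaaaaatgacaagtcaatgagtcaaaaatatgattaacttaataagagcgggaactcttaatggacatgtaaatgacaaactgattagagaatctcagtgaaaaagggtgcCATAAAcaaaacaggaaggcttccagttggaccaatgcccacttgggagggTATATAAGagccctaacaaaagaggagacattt
KRTAP3-3: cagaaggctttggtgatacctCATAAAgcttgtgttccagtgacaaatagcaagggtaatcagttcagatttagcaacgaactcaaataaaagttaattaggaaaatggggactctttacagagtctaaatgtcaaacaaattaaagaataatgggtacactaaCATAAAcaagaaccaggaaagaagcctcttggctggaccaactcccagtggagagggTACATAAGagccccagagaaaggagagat
KRT20: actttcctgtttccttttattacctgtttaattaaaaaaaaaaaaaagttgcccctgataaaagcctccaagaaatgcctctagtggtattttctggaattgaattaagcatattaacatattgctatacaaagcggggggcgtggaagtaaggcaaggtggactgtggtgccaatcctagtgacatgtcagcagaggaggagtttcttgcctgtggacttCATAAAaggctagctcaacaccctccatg
In pairwise alignments 58.1% of positions were identical between KRTAP3-1 and KRTAP3-2, 60.2% between KRTAP3-1 and KRTAP3-3, and 61.3% between KRTAP3-2 and KRTAP3-3 (gaps counted), so the 3 pairs were about equally alike.

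The 4 motifs looked for on both strands were chosen after these sequences were seen and are a description only. TANATAAG begins 30 bases before the start of KRTAP3-1, 33 before that of KRTAP3-2 and 29 before that of KRTAP3-3. It is held by 2.21% of 35116 promoters in the table (counted over 300-base windows that also take in the first bases of the gene) and by 6 of the 31 promoters of keratin-associated proteins. TTTATG begins 158 and 103 bases before the start of KRTAP3-1, 84 before that of KRTAP3-2, 229 and 86 before that of KRTAP3-3 and 29 before that of KRT20. It is held by 9.64% of all promoters and by 23 of the 64 promoters found for 60 of the 78 genes. TGANTCA, an AP-1 site, begins 178 bases before the start of KRTAP3-2 and is held by 6.57% of all promoters. GGGCGG, a GC box, is held by 42.6% of all promoters but by 4 of the 64, and by none of the 4 sequences shown. The first 2 motifs are found in KRTAP3-1 and in the silent KRTAP3-2 and KRTAP3-3. TTTATG is on the printed strand in KRTAP3-1 and on the other strand, at other distances, in KRTAP3-2 and KRTAP3-3. Whether any motif bears on the signal was not tested.

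KRTAP4-1, the other keratin-associated protein with a value over log2 5, had 3.11 in medium, 2.70 in NaCl and 3.25 in butyrate. The fluids gave 4.45, 5.04, 4.58 and 4.80 at 0%, 4.87, 4.17, 4.16 and 4.37 at 1%, and 4.75, 3.73, 3.69 and 3.68 at 2%. It was above all 3 controls in every fluid, yet passed log2 5 on a single array and entered no test. Its values in vessels 2 to 4 were lower at 2% than at 0%, with no overlap, and those in vessel 1 were not.

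The row of keratin genes on chromosome 17 from KRT222 to KRT17 holds 62 protein-coding genes, of which 46 were measured here, all of them keratins or keratin-associated proteins. Signal on some array was found for 7 of the 46: KRT10, KRT20, KRT23, KRTAP3-1, KRTAP4-1, KRT15 and KRT19. Of the 23 keratin-associated genes in it 21 were silent on all arrays. On chromosome 12, where the type II keratins and KRT18 lie, 4 of 21 genes had signal (KRT7, KRT8, KRT18 and KRT80) and 17 were silent throughout. None of the 4 genes on chromosome 11 or the 7 on chromosome 21 reached log2 5.

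**Figure D3:**
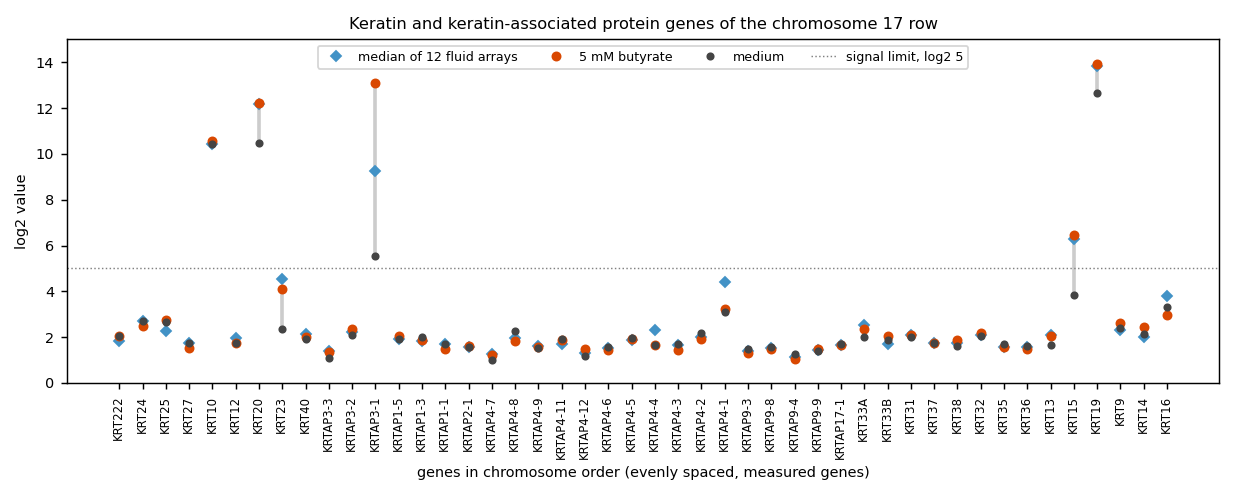
Log2 values of the 46 measured genes in the keratin row of chromosome 17, evenly spaced in chromosome order. Values are those in medium, in 5 mM butyrate and the median of the 12 fluid arrays. Grey bars join the medium and butyrate values of a gene, and the dotted line is log2 5. KRT20 and KRT23, and KRT15 and KRT19, lie next to each other, and the other genes with signal stand between silent neighbours. KRTAP3-1 is the only gene that goes from 5.55 to 13.09.

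The polydextrose concentrations were compared over the 12 fluid arrays with limma, for 8737 genes at log2 5 or more on at least 4 of the arrays, 9 of them among the 78. A gene passed at a Benjamini-Hochberg adjusted p under 0.05. Between 2% and 0%, 1 of the 9 passed, KRT15, against 20.8% of all genes tested (9.65% higher and 11.2% lower). Its mean was 5.83 ± 0.34 at 0%, 6.40 ± 0.57 at 1% and 6.59 ± 0.57 at 2% (SD, n = 4), and it rose by 0.76 ± 0.12 (SE) from 0% to 2% (adjusted p = 0.00477). The rise was seen in 4 of 4 vessels, with 0.48, 0.69, 1.23 and 0.62 in vessels 1 to 4. From 0% to 1% KRT15 rose by 0.58 ± 0.12 (adjusted p = 0.0341), the only 1 of the 9 to pass, against 4.78% of all genes (2.63% higher and 2.15% lower). This second call was lost in 9 of the 12 fits that left out 1 array (adjusted p up to 0.123). Without the vessel as a block KRT15 did not pass in either comparison (adjusted p = 0.216 and 0.441). Between 2% and 1% none of the 9 passed in limma and no gene of the 8737 did (0%), although 1608 genes, 2 of the 9 among them, had an unadjusted p under 0.05. The median change of the 9 genes from 0% to 2% was 0.05, beside -0.01 for all genes tested.

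KRTAP3-1 differed more between concentrations than KRT15 did, but with a spread that the test did not pass. Its mean was 8.59 ± 1.18 at 0%, 8.77 ± 1.39 at 1% and 9.76 ± 1.27 at 2% (SD, n = 4). The difference between 2% and 0% was 1.17 ± 0.63 (limma adjusted p = 0.209, 95% confidence interval -0.24 to 2.59). It was -1.34 in vessel 1 and 1.17, 1.87 and 2.99 in vessels 2, 3 and 4. Without the arrays of vessel 1 the difference was 2.01 and passed (adjusted p = 0.004), and it was 2.04 without the 0% array of vessel 1 alone (adjusted p = 0.00182). Without the 0% array of vessel 4 it was 0.54 (adjusted p = 0.552).

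KRT7 showed the opposite sign. Its mean was 6.46 ± 0.16 at 0%, 6.29 ± 0.63 at 1% and 5.87 ± 0.46 at 2% (SD, n = 4), and the difference of -0.58 ± 0.25 between 2% and 0% did not pass (limma adjusted p = 0.13). It was 0.25 in vessel 1 and -0.67, -1.24 and -0.68 in vessels 2, 3 and 4. Without the arrays of vessel 1 it was -0.86 and passed (adjusted p = 0.0116), and without the 0% array of vessel 1 it was -0.89 (adjusted p = 0.00619). KRT10 differed by 0.17 and KRT80 by -0.18 between 2% and 0%, and neither passed (limma adjusted p = 0.117 and 0.321). Both passed without the arrays of vessel 1, KRT10 at 0.21 and KRT80 at -0.22 (adjusted p = 0.0485 and 0.0478).

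Vessel 1 was set against the mean of vessels 2 to 4, with the concentration in the same fit. KRT10, KRT15 and KRT20 were lower in vessel 1, 3 of the 9 genes tested, and none was higher. Of all genes 34.7% passed, 15.4% lower and 19.3% higher. KRT15 was lower by 0.94 ± 0.11 on the log2 scale (limma adjusted p = 0.000952). The gap was there at each concentration, with -0.67 at 0%, -1.11 at 1% and -1.03 at 2%. KRT20 was lower by 0.30 ± 0.09 (adjusted p = 0.0293), with -0.34, -0.51 and -0.05, so at 2% its vessels were nearly alike. KRT10 was lower by 0.25 ± 0.07 (adjusted p = 0.0181), with -0.12, -0.34 and -0.29. With each probe set tested alone, the one used here and the dimmer of the other KRT10 probe sets passed, and the brighter did not. KRT20 no longer passed when the 0% array of vessel 1 or 2, any 1% array or the 2% array of vessel 4 was left out (adjusted p up to 0.179). KRT10 no longer passed without the 1% or the 2% array of vessel 1 (adjusted p = 0.1 and 0.0796). With the concentration left out of the fit none of the 3 passed (limma adjusted p = 0.0637 for KRT15, 0.0906 for KRT20 and 0.0808 for KRT10). The ACTB difference between 3′ and 5′ probe sets was 0.62 to 0.924 in vessel 1 and 0.366 to 0.636 in vessels 2 to 4, and its part in these results was not tested.

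KRTAP3-1 was lower in vessel 1 by 1.40 ± 0.59 and did not pass (limma adjusted p = 0.0947). Without the 0% array of vessel 1 the difference was -2.55 and passed (adjusted p = 0.000577), and without the 0% array of vessel 4 it was -1.68 and passed (adjusted p = 0.032). It was -0.77 without the 1% array of vessel 1 and -0.87 without the 2% array of vessel 1 (adjusted p = 0.451 and 0.391). Its gap between vessel 1 and the others was 0.91 at 0%, -2.65 at 1% and -2.44 at 2%. Whether the slope per percent polydextrose differed between vessel 1 and the other vessels was tested in itself, and none of the 9 genes passed in limma, against 1.17% of all genes (0.824% higher and 0.343% lower). Without adjustment 1739 genes, 2 of the 9 among them, had a p under 0.05. For KRTAP3-1 the slope in vessel 1 was lower by 1.67 ± 0.49 per percent (adjusted p = 0.123, 95% confidence interval -2.79 to -0.55). That value rested on the 0% array of vessel 1, since without it the term was 0.21 (adjusted p = 0.923). Without the 1% array of vessel 1 it was -1.67 (adjusted p = 0.0412) and without the 2% array -3.56 (adjusted p = 0.0406). KRT8 was 0.18 higher in vessel 1 and did not pass (limma adjusted p = 0.077), except without the 0% array of vessel 1 or of vessel 3 (adjusted p = 0.0485 and 0.0471) and with a trended, robust prior (adjusted p = 0.0148). KRT7 was 0.55 ± 0.24 higher in vessel 1 and did not pass (adjusted p = 0.102), but at 0.96 it passed without the 0% array of vessel 1 (adjusted p = 0.00381), and it was 0.29 without the 1% array of vessel 1 (adjusted p = 0.473). Its gap was -0.27 at 0% and 1.07 and 0.85 at 1% and 2%.

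**Figure D4:**
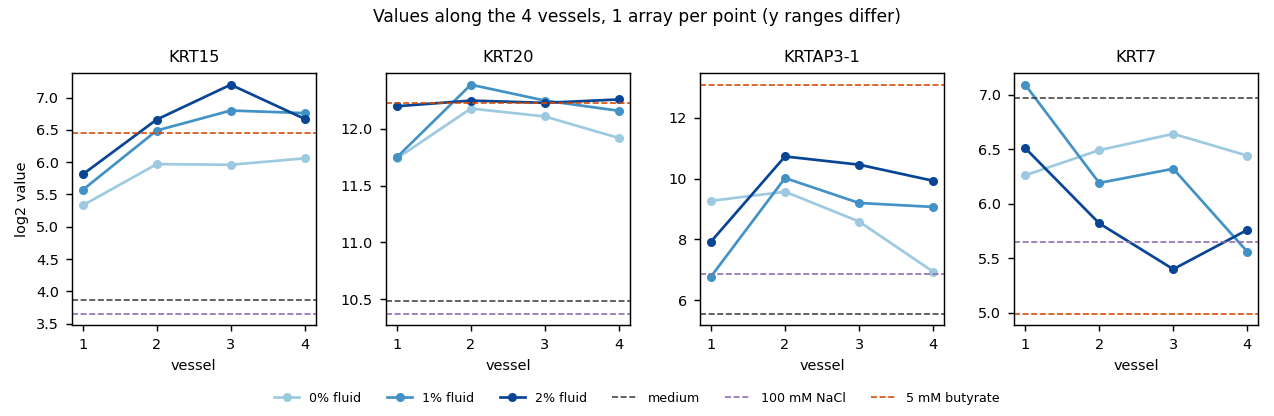
Log2 values of KRT15, KRT20, KRTAP3-1 and KRT7 in vessels 1 to 4 (x axis) at 0%, 1% and 2% polydextrose, 1 array per point, with the 3 control arrays as dashed lines; the y ranges differ. KRT15 is lowest in vessel 1 at each concentration, and KRTAP3-1 in vessel 1 is above the mean of the later vessels at 0% (by 0.91) and below it at 1% and 2%.

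Genes that work with keratins were read in 4 lists by the same rules. Of all genes, 51.9% were silent on all arrays. Of those compared, 15.6% were counted above medium in butyrate and 15.6% below it. Of those tested, 9.65% passed as higher and 11.2% as lower at 2% against 0%. The counts below stand beside these shares. Of 16 desmosome genes, which anchor keratin filaments, 9 had signal. Butyrate was above medium for 1 of the 9 compared, PPL, a plakin that links filaments to the membrane (8.69 in medium, 10.67 in butyrate). PPL also rose from 0% to 2%, by 0.26, the only 1 of 9 desmosome genes tested to pass. Of 23 matched genes of the cornified envelope, the protein shell of epidermal cells, 20 were silent on all arrays. One of its structural proteins, SPRR1A, had 2.07 in medium, 1.68 in NaCl, 8.70 in butyrate and 5.30 to 8.84 in the fluids, so that butyrate was at least 3.70 above medium. SPRR1A rose by 1.20 from 0% to 1% and by 1.60 from 0% to 2% (limma adjusted p = 0.00852 and 0.00066), and differed by -1.72 between vessel 1 and the other vessels (adjusted p = 0.000103). SCEL, which also belongs to that shell, had 5.51 in medium and 7.10 in butyrate.

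Of 15 other intermediate filament genes 9 were silent throughout, against 51.9% of all genes. VIM, the filament of mesenchymal cells, had 3.38 in medium and 6.80 in butyrate, at least 1.80 higher, and 4.19 to 5.23 in the fluids. The nuclear lamins LMNB1 and LMNB2 were 3.11 and 1.84 lower in butyrate than in medium. Of 4 genes tested between 2% and 0%, PRPH, a neuronal filament, rose by 1.06, while LMNA, LMNB1 and LMNB2 fell by 0.32, 1.11 and 0.78. Among 14 matched anchors and regulators, 11 were tested, of which 3 were higher at 2% (ELF3, KLF4 and KLHL24) and 2 lower (EHF and FAM83H). ELF3 and EHF are epithelial transcription factors of 1 family. ELF3 was 2.30 higher and EHF 3.71 lower in butyrate than in medium, and from 0% to 2% ELF3 rose by 0.54 and EHF fell by 0.77. KLHL24, which directs the breakdown of keratins, rose by 0.69, and FAM83H, which organises keratin filaments, fell by 0.79. None of the genes in the 4 lists passed between 2% and 1%, where no gene of the 8737 tested did (0%).

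The 5 genes most like KRTAP3-1, by Pearson correlation over the 15 arrays among 2173 genes with a range of at least 2, were ZMAT3 (0.951), SLC25A20 (0.947), GPRC5B (0.947), SUSD4 (0.945) and SMPD1 (0.945). The arrays share 1 normalization, and a single point, butyrate, lies far from the others for KRTAP3-1, so these are descriptions. ZMAT3, an RNA-binding protein, had 7.42 in medium, 8.02 in NaCl, 9.71 in butyrate and 8.10 to 9.15 in the fluids. SMPD1, the acid sphingomyelinase, had 6.27 in medium, 5.87 in NaCl, 8.98 in butyrate and 6.57 to 8.18 in the fluids. GPRC5B stayed under log2 5 on all arrays.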

How the data were processed

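The authors deposited 1 table of log2 values for 54675 probe sets and 15 arrays. Per the submitters' processing notes the values were made with GCRMA (background correction, normalization and a summary over probes); its version and the chip description are not given in the sources used here. That the scale is log2 was inferred from the values (0.173 to 14.46), and no intensities were processed. By the platform's annotation 41097 probe sets had 1 symbol, 1801 several and 11777 none. The 78 genes held 92 single-symbol probe sets, and 7 probe sets with several symbols, a keratin gene among them, were not used here. Single arrays were compared by size alone, with a side under log2 5 set to 5 for a bound. The number of arrays limits the precision.

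The fluid arrays entered a linear model (R 4.3.3, limma 3.58.1) with concentration and vessel as factors, 6 residual degrees of freedom and a median residual SD of 0.1465. P-values were two-sided and Benjamini-Hochberg adjusted over 8737 genes. The vessel is a factor of the design: of 12 same-vessel pairs 10 correlated above 0.1 once concentration means were removed (median 0.376).

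Genes were named by a rule: each of the 78 at log2 5 or more on some array, and, of each companion list, up to 3 by smallest p for 2% against 0% and up to 3 by largest butyrate difference. LMNA and the cell type markers were named outside it, after their values were seen. The genes, the lists, the rules and the alternatives were chosen with earlier results of these data known. The alternatives were another limit for silent, other filters on low values, the mean of probe sets or each alone, renewed quantile normalization, median centring, NaCl as control, a trended and robust prior, no replicate block, fewer arrays, and each array left out in turn. Promoters were taken from RefSeq (GRCh38.p14).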

Additional observations from a re-analysis of the deposited data

Results flagged for a closer look

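Among the 33 groups of 4 arrays formed by the 11 genes with signal and the 3 concentrations, 5 held an array that stood apart, its gap to the nearest other being a larger share of the group's range than Dixon's 95% critical value. Among 4 repeats of 1 condition chance would set apart about 1 group in 20, but the 4 arrays here came from 4 different vessels. The share over all genes was not counted, so the count of 5 cannot be read as particular to these genes. KRT15 had 5.33 in vessel 1 at 0%, under 5.96 to 6.06 in the other vessels. KRT23 had 3.52 in vessel 1 at 1%, under 4.59 to 4.79. KRT8 had 13.68 in vessel 1 at 1%, over 13.43 to 13.47, and 13.23 in vessel 4 at 0%, under 13.53 to 13.57. KRTAP4-1 had 4.75 in vessel 1 at 2%, over 3.68 to 3.73. In 4 of the 5 the array was that of vessel 1, and no cause was tested.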

How the results depend on the processing

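The counts of silent and switched-on genes stayed within 1.5 times under each limit, probe set rule, normalization and control tried, but the gene switched on was KRTAP3-1 in place of KRT15 with limits of 6 and 7. Leaving out each fluid array in turn, an alternative chosen after seeing the data, left KRT15 as the gene switched on by fluid. For 2% against 0% the count of 1 became 2 without a filter on low values (KRT15 and KRT78) and 2 with the trended, robust prior (KRT15 and KRT20), and 5 without vessel 1 (KRT7, KRT10, KRT15, KRT80 and KRTAP3-1). Without the replicate block (the vessel when concentrations are compared, the concentration when vessels are) it was 0, as it was for 1% against 0% and for vessel 1, and no gene of all those tested passed. KRT15 then had adjusted p = 0.216 for 2% against 0% in limma, 0.441 for 1% against 0% and 0.0637 for vessel 1. With the 8 arrays compared alone, 0 passed for 1% against 0% and 1 for 2% against 1% (KRTAP3-1, adjusted p = 0.0442). Over all genes the counts for 2% against 0%, 1% against 0% and 2% against 1%, which were 1820, 418 and 0, then became 863, 1 and 61, and without vessel 1 they became 3203, 1136 and 141. For the slope, 1 passed without a filter (KRTAP4-1). With each array left out in turn the counts ran from 1 to 4 for 2% against 0% (4 without the 0% array of vessel 1), from 0 to 1 for 1% against 0% (0 in 9 of 12), from 1 to 5 for vessel 1 (1 without the 1% array of vessel 1, 5 without the 0% array) and from 0 to 1 for the slope (1 without the 1% or 2% array of vessel 1). The slope of KRTAP3-1 ran from -3.56 without the 2% array of vessel 1 to 0.21 without the 0% array, against -1.67 with all arrays; the cause was not tested. KRT15 passed for 2% against 0% with each array left out (0.63 to 0.86, adjusted p 0.00112 to 0.022), and for 1% against 0% it ranged from 0.0106 to 0.123. Set against NaCl in place of medium, butyrate was higher by 6.22 for KRTAP3-1 and level for KRT80 (0.00). With the mean of probe sets its difference was 0.76 for KRT19. The number of arrays limits what these comparisons can show, and the control arrays had no repeat.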
